A study of Rattus norvegicus with 24 samples.

Results

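Described here are 7 genes of blood vessels and of vasomotor control, Vegfa, Kdr, Flt1, Nos3, Edn1, Agt and Agtr1a, measured in hearts of male Wistar rats. They are 7 of the 23098 gene IDs in the deposited count table. They were chosen by a fixed list of Ensembl IDs that gives each its symbol, because the table itself carries no gene names. All 7 had counts in all 24 libraries and were among the 15065 genes tested. RNA was taken from the free wall of the left ventricle at mid-ventricular level, flash frozen. Each of the 4 groups held 6 libraries. Sham rats had a durotomy alone, high on the thoracic cord, and were sampled on day 7. All others had the cord cut through completely at that level (spinal cord injury, SCI), with tissue taken after 1 day, after 3 days or after 12 weeks. The series asks how such an injury changes the heart transcriptome. Ages were not given in the sources used here. No SCI group is matched to sham in time after surgery, so injury and time since surgery cannot be told apart. Whether every library is a separate animal is not stated in the labels, and p-values then measure only the spread between these samples, which may be technical.

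VEGF-A, the product of Vegfa, is a secreted growth factor that heart muscle cells and other cells make to keep and extend the capillary bed. It acts on endothelial cells through the receptor tyrosine kinase VEGFR2 (Kdr), while VEGFR1 (Flt1) binds it tightly but signals weakly and, in its soluble form, holds it away from VEGFR2. Endothelial nitric oxide synthase (Nos3) makes the vasodilator nitric oxide. Endothelin-1 (Edn1) and angiotensin II, cut from angiotensinogen (Agt) and sensed by the type 1a angiotensin receptor (Agtr1a), constrict vessels. A transection high in the thoracic cord cuts off, at least in part, brainstem control over the sympathetic nerves that reach the heart.

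Depth was 15002476 to 70340174 counts per library. The lowest depths were those of 12 week replicate 1 and of 3 day replicate 5. The mean correlation of a library with the others of its group (log2 CPM) was lowest, at 0.968, for 12 week replicate 3, followed by these same 2 libraries, and reached 0.989 elsewhere. In the labels, 3 day and sham libraries carry the numbers 57 to 68, and 1 day and 12 week libraries 77 to 88. The comparisons of 3 days with sham and of 12 weeks with 1 day lie within a run of numbers. For the other comparisons the group and the run cannot be told apart. Levels are in CPM, counts scaled to a common library size after TMM correction, and are compared between groups only, never between genes. Differences are log2 fold changes from edgeR's quasi-likelihood test. A gene is called when its Benjamini-Hochberg adjusted p over all tested genes is under 0.05.

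Of the 7 genes, 3 were called at 1 day against sham, where 24% of all tested genes were called (11.9% higher and 12.1% lower). Vegfa and Flt1 fell and Edn1 rose. At 3 days only Nos3 was called, lower than sham, where 17.5% of all genes were called (8.59% lower). At 12 weeks Flt1 and Nos3 were called, both higher than sham, where 22.1% of all genes were called (11.3% higher). The median log2 fold change of the 7 genes was -0.26, -0.19 and 0.02 in order of time, and that of all tested genes was 0.00, 0.01 and 0.01. These counts are few, and the shares called among the 7 genes are read only against those percentages. The 3 comparisons share the sham libraries. In bulk tissue, fewer cells of a type and less RNA per cell cannot be told apart.

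**Figure D1:**
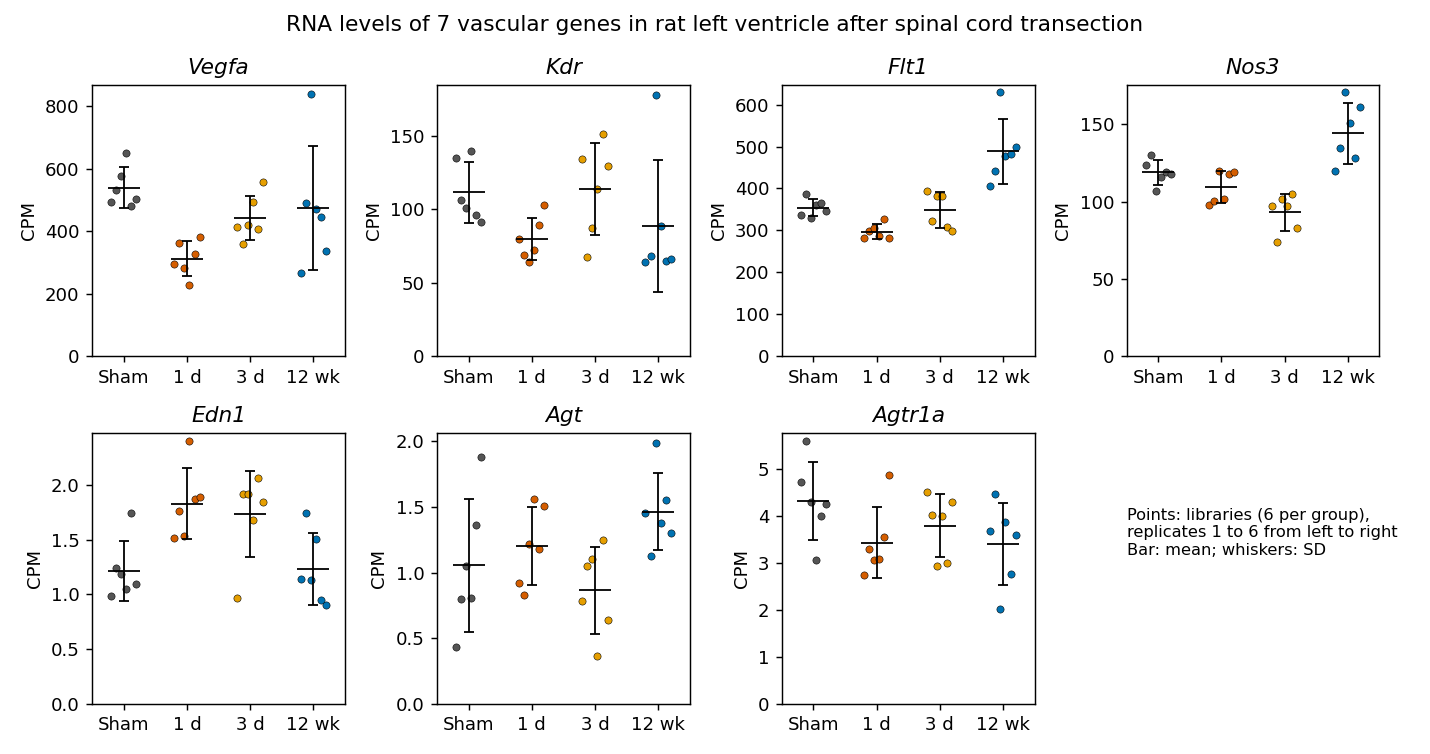
RNA level (CPM, from 0) of each of the 7 genes in the 24 libraries, by group. Points are libraries (replicates 1 to 6 from left to right), bars are means and whiskers SD (n = 6). Vegfa lies below every sham library at 1 day, Flt1 lies above every sham library at 12 weeks, and 12 week replicate 3 is the highest point for Vegfa, Kdr, Flt1 and Nos3.

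The ligand was lowest at 1 day. Vegfa (ENSRNOG00000019598) ranged from 480.4 to 651 CPM in sham (median 517). One day after transection it ranged from 229 to 380.0 CPM (median 309.7), so that all 6 libraries lay below the lowest sham library. Among all tested genes, 7.95% lay wholly below sham at 1 day. The means were 539.7 ± 64.7 CPM in sham and 312 ± 55.6 CPM at 1 day (SD, n = 6). Vegfa was thus 1.73-fold lower (log2 fold change -0.79, SE 0.18, adjusted p = 0.0028), and 3.22% of tested genes had a lower log2 fold change. This call held without each library in turn and under each other setting tried.

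At 3 days Vegfa ranged from 359 to 558 CPM (median 418), with 4 of 6 libraries below the sham range. The log2 fold change of -0.29 against sham was not called (95% interval -0.66 to 0.09, adjusted p = 0.302). At 12 weeks it ranged from 265 to 839 CPM (median 458), and its SD of 198 CPM was the widest of the 4 groups. The highest library, replicate 3, lay above all sham libraries, and 4 others lay below them. The log2 fold change against sham was -0.18 (95% interval -0.56 to 0.19, adjusted p = 0.507), and without 12 week replicate 3 Vegfa was called lower (-0.43, adjusted p = 0.0377). Between SCI groups, Vegfa was higher at 12 weeks than at 1 day (log2 fold change 0.61, SE 0.18, adjusted p = 0.0126), within a run of library numbers. That call was lost without 12 week replicate 3, where the value was 0.37 (adjusted p = 0.0565). It was also lost in a fit of these groups alone (adjusted p = 0.0513). The mean levels fell in the order sham, 12 weeks, 3 days and 1 day, and no neighbours in that order were told apart. For 3 days and 1 day, the neighbours furthest apart, the log2 fold change was 0.50 (adjusted p = 0.135), and it was called without 12 week replicate 3 (adjusted p = 0.0393).

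The 250 bases before the RefSeq starts of Vegfa and Edn1, both called at 1 day, are shown. The windows of Kdr, Flt1, Nos3 and Agtr1a were searched too and are not shown. Those of Kdr, Flt1 and Nos3 overlap transcribed sequence. Capitals mark exact matches, on either strand, to the GC box (GGGCGG), the TATA box (TATAAA), the core of a hypoxia response element (ACGTG) and a GATA site (AGATAA). An AP-1 site (TGANTCA) and an ETS site (GGAAGT) were also searched, and neither window holds those letters. The windows are from the build GRCr8, not the mRatBN7.2 of the counts, written 5′ to 3′ on the strand of the gene: Vegfa at chr9:22452604-22452853 (plus strand) and Edn1 at chr17:22666688-22666937 (minus strand). Of the 2 starts that RefSeq gives for Vegfa, the most upstream was used.
Vegfa: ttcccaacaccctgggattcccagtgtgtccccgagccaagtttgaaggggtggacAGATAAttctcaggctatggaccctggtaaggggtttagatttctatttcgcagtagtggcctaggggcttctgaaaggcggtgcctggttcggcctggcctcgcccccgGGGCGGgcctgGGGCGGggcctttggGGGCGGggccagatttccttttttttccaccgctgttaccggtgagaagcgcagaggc
Edn1: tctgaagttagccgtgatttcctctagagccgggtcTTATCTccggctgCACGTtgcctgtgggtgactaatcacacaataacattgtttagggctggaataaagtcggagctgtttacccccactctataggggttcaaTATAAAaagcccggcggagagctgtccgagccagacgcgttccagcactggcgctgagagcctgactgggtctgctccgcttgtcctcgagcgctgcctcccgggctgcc
The Vegfa window holds 3 GC boxes, the nearest at 58 to 53 bases before the start, and a GATA match. Edn1 has a TATAAA match at 110 to 105 bases before the RefSeq start, a GATA match and an ACGTG match at 201 to 197 bases. Where transcription starts in these hearts was not tested, so the end of either window may itself be transcribed. Over the 33469 promoter windows of this length, 30.5% hold a GC box, 12.9% a TATA box, 10.3% the GATA letters and 16.6% ACGTG. An ETS site is held by 19.2% and an AP-1 site by 6.34%. Among the windows not shown, those of Flt1 and Agtr1a hold both a TATA box and GC boxes. Those of Kdr and Nos3 hold a GC box and no TATA box. An ETS match lies in the windows of Kdr, Flt1 and Agtr1a, and none of the windows not shown holds an AP-1 match. Whether any of these matches bears on a change in RNA level was not tested. A match is a description of the sequence, and the counts carry no measure of binding there.

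Of the receptors of VEGF-A, Flt1 fell at 1 day, by a small margin, and rose at 12 weeks, and Kdr was not called in any comparison with all 24 libraries. At 1 day the log2 fold change of Kdr was the lower of the pair (-0.49 against -0.26), and the log2 ratio of Flt1 to Kdr within libraries did not pass a test against sham (difference 0.23, two-sided exact permutation p = 0.165, adjusted p = 0.208). The ratio at 12 weeks is given with the other ratios.

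Kdr (ENSRNOG00000046829) ranged from 91.4 to 140.0 CPM in sham (median 104). It ranged from 64.4 to 103 CPM at 1 day (median 76.0), 67.7 to 152 CPM at 3 days (median 122) and 63.8 to 178 CPM at 12 weeks (median 67.3). At 1 day 5 of 6 libraries lay below the sham range, and at 12 weeks the same count did so while replicate 3 lay above it. The log2 fold change at 1 day was -0.49 (95% interval -0.94 to -0.03, unadjusted p = 0.036, adjusted p = 0.109). It was called without 12 week replicate 3, which enters only the shared spread (-0.49, adjusted p = 0.0227). A fit of the 1 day and sham libraries alone also called it (-0.48, adjusted p = 0.00907).

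For Kdr at 3 days the log2 fold change against sham was 0.03 (95% interval -0.42 to 0.48, adjusted p = 0.949). At 12 weeks it was -0.34 (95% interval -0.79 to 0.12, adjusted p = 0.291). A single library set this value, since without 12 week replicate 3 Kdr was called lower than in sham (-0.67, adjusted p = 0.00596) and lower than at 3 days (-0.69, adjusted p = 0.00327). With all libraries the 12 week value lay 0.37 below that at 3 days on the log2 scale (adjusted p = 0.218). The mean levels were highest at 3 days (114 ± 31.4 CPM), then in sham (112 ± 20.7), at 12 weeks (88.5 ± 45.0) and at 1 day (79.6 ± 14.4; SD, n = 6), and no pair of groups was told apart. For 3 days against 1 day the log2 fold change was 0.52 (adjusted p = 0.208).

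Flt1 (ENSRNOG00000000940) varied little within sham and at 1 day (SD 5.71% and 5.96% of the mean). It varied more at 3 days (12.3%) and at 12 weeks (15.7%). It ranged from 330.2 to 386 CPM in sham (median 353) and from 281 to 327 CPM at 1 day (median 293). The groups did not overlap, as for 7.95% of all tested genes wholly below sham at 1 day. The means of 354 ± 20.2 and 297 ± 17.7 CPM (SD, n = 6) differed 1.19-fold (log2 fold change -0.26, SE 0.09, adjusted p = 0.0316). The call was lost without sham replicate 2 (adjusted p = 0.0861), 4, 5 or 6, or without 1 day replicate 1, 4 or 6, with log2 fold changes still between -0.29 and -0.22 over all 24 leave-outs. The exact permutation test of the 12 libraries gave its smallest possible p of 0.00216 (adjusted p = 0.0146).

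At 3 days Flt1 ranged from 299 to 395 CPM (median 352), around the sham range on both sides, with a log2 fold change of -0.03 (95% interval -0.20 to 0.15, adjusted p = 0.872). At 12 weeks it ranged from 405 to 629.6 CPM (median 479), and all 6 libraries lay above the highest sham library. Wholly above sham at 12 weeks were 4.38% of all tested genes. The mean of 489 ± 76.8 CPM (SD, n = 6) was 1.38-fold that of sham (log2 fold change 0.46, SE 0.09, adjusted p = 0.000445). It held in every setting tried and was 0.38 without 12 week replicate 3. Flt1 was also higher at 12 weeks than at 1 day, 1.65-fold (log2 fold change 0.72, SE 0.09, adjusted p = 1.93e-06), within a run of library numbers. That comparison called 33.9% of all genes (17.8% higher and 16.1% lower), and 3 of the 7 genes rose and 1 fell in it. Against 3 days it was 1.41-fold higher (log2 fold change 0.49, SE 0.09, adjusted p = 0.000152). That comparison called 31.3% of all genes (16% higher), and 3 of the 7 genes rose in it. No 12 week library overlapped either acute group, as for 6.98% of all genes wholly above 1 day and 4.95% wholly above 3 days. The order of mean levels was 12 weeks, sham, 3 days and 1 day. Sham and 3 days were not told apart, nor were 3 days and 1 day (log2 fold change 0.23, adjusted p = 0.146). Counts per gene do not separate the soluble from the membrane form of Flt1.

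**Figure D2:**
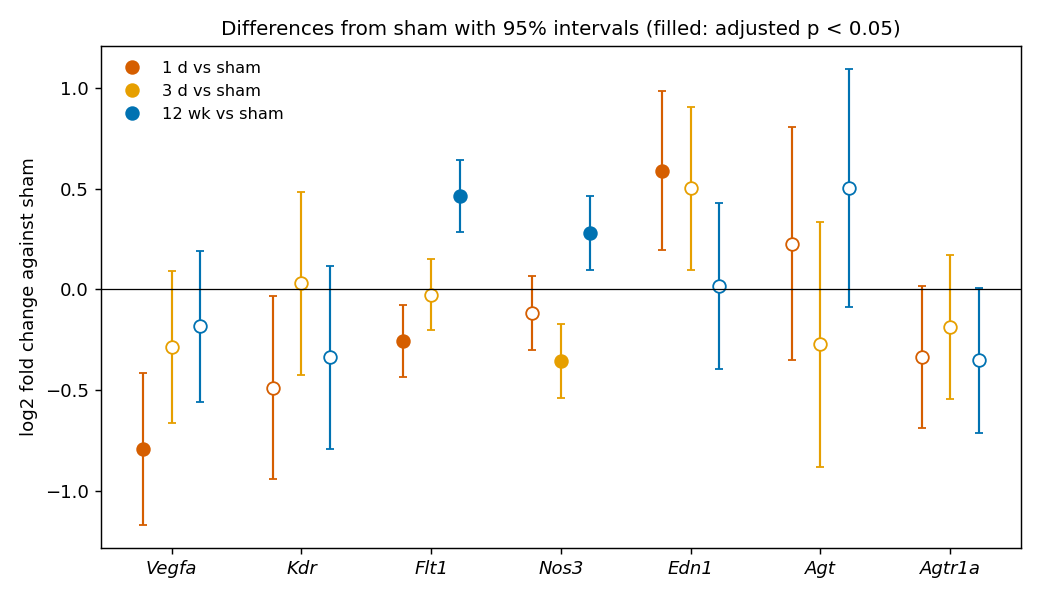
Log2 fold change against sham of each gene at 1 day, 3 days and 12 weeks, from edgeR, with 95% intervals (n = 6 libraries per group). Filled points have an adjusted p under 0.05. They are Vegfa, Flt1 and Edn1 at 1 day, Nos3 at 3 days, and Flt1 and Nos3 at 12 weeks.

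The RNA of endothelial nitric oxide synthase was lowest at 3 days and highest at 12 weeks. Nos3 (ENSRNOG00000009348) ranged from 107 to 130.1 CPM in sham (median 118). At 3 days it ranged from 73.9 to 105 CPM (median 97.2), with all 6 libraries below the sham range, as for 4.77% of all tested genes. The means of 119 ± 7.88 and 92.9 ± 11.9 CPM (SD, n = 6) gave a 1.28-fold fall (log2 fold change -0.36, SE 0.09, adjusted p = 0.00743). It held in every setting tried, and both groups lie in the same run of library numbers. At 1 day Nos3 ranged from 98.0 to 119.7 CPM (median 109.7), with 3 libraries below and 3 within the sham range. The log2 fold change of -0.12 was not called (95% interval -0.30 to 0.06, adjusted p = 0.352).

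At 12 weeks Nos3 ranged from 119.6 to 171 CPM (median 143). All 6 libraries lay above the sham mean and 4 above the sham range. The mean of 144 ± 19.9 CPM was 1.21-fold that of sham (log2 fold change 0.28, SE 0.09, adjusted p = 0.0264). This call was near the threshold. It was lost without sham replicate 3 (adjusted p = 0.0618) or 4 (adjusted p = 0.0506), and without 12 week replicate 3 (0.23, adjusted p = 0.0697), 4 (adjusted p = 0.0531) or 6 (adjusted p = 0.065). Nos3 also rose from both acute times. It was 1.55-fold higher at 12 weeks than at 3 days (log2 fold change 0.64, SE 0.09, adjusted p = 1.42e-05). These groups did not overlap, as for 4.95% of all tested genes wholly above 3 days. At 12 weeks Nos3 was also 1.32-fold higher than at 1 day (log2 fold change 0.40, SE 0.09, adjusted p = 0.00137). Both differences were called in every setting tried. The mean levels ran in the order 12 weeks, sham, 1 day and 3 days, and sham was not told apart from 1 day. Nor was 1 day told apart from 3 days (log2 fold change -0.24, adjusted p = 0.152). That comparison called 2.74% of all genes and none of the 7.

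Among the vasoconstrictor genes, Edn1 was higher than sham at 1 day, and neither Agt nor Agtr1a was called against sham at any time. Edn1 (ENSRNOG00000014361) had few counts, from 18 to 119 per library. Counting error alone gives the count of 18 an exact Poisson 95% interval of 10.7 to 28.4. Of gene counts from 1 to 200, between 58.1% and 61.1% per library were even, so a count may not be 1 independent fragment and such intervals may be too narrow.

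Edn1 ranged from 0.981 to 1.74 CPM in sham (median 1.14) and from 1.51 to 2.40 CPM at 1 day (median 1.82), with 4 of 6 libraries above the sham range and all 6 above the sham mean. Sham replicate 5, at 1.74 CPM, stood apart from the other sham libraries, the next of which had 1.24 CPM. The mean rose 1.51-fold from 1.22 ± 0.27 to 1.83 ± 0.32 CPM (SD, n = 6; log2 fold change 0.59, SE 0.19, adjusted p = 0.0266). The call was lost without sham replicate 1 (0.54, adjusted p = 0.0606) or 4 (0.55, adjusted p = 0.0552), or without 1 day replicate 4 (0.50, adjusted p = 0.0752). At 3 days Edn1 ranged from 0.968 to 2.06 CPM (median 1.88), with 4 libraries above the sham range and replicate 1 below it. The log2 fold change of 0.50 (95% interval 0.10 to 0.91) was not called (adjusted p = 0.0802). It was called without 3 day replicate 1 (0.63, adjusted p = 0.0216) or sham replicate 5 (0.63, adjusted p = 0.0319).

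At 12 weeks Edn1 ranged from 0.902 to 1.75 CPM (median 1.13), over much the same span as sham, with a log2 fold change of 0.02 (95% interval -0.40 to 0.43, adjusted p = 0.963). It was lower at 12 weeks than at 1 day (log2 fold change -0.57, SE 0.20, adjusted p = 0.0262). That call was lost without 1 day replicate 4 (adjusted p = 0.0718) or 12 week replicate 5 (adjusted p = 0.0586) or 6 (adjusted p = 0.0647). Against 3 days the value was -0.48 (adjusted p = 0.067), called without 3 day replicate 1 (-0.61, adjusted p = 0.0158) or 12 week replicate 2 (-0.62, adjusted p = 0.0239). In order of mean level Edn1 was highest at 1 day, then at 3 days, 12 weeks and in sham, and no neighbours were told apart with all libraries.

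Agt (ENSRNOG00000018445), whose product is made chiefly by the liver, had 12 to 83 counts per library. Its sham libraries ranged from 0.434 to 1.88 CPM (median 0.927), the widest relative spread of any sham group here, with an SD of 48.2% of the mean. It ranged from 0.832 to 1.56 CPM at 1 day (median 1.198), 0.360 to 1.25 CPM at 3 days (median 0.918) and 1.12 to 1.98 CPM at 12 weeks (median 1.41). All 3 SCI groups overlapped sham. The log2 fold changes against sham were 0.23 (95% interval -0.35 to 0.81, adjusted p = 0.598), -0.27 (-0.88 to 0.34, adjusted p = 0.574) and 0.51 (-0.09 to 1.10, adjusted p = 0.216) in order of time. None of the 3 was called, and the intervals hold both a fall and a rise. Agt was called higher at 12 weeks than at 3 days (log2 fold change 0.78, SE 0.30, adjusted p = 0.0467). That call was lost without any 1 of 14 libraries, namely sham replicates 2, 3 and 4, 1 day replicates 3, 5 and 6, 3 day replicates 1, 4 and 6, and all 12 week replicates but the second. The adjusted p then reached 0.111, without 3 day replicate 4, which had the lowest count. With the replicate number as a block it was 0.0553. The order of mean levels was 12 weeks, 1 day, sham and 3 days, with no neighbours told apart.

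Agtr1a (ENSRNOG00000018346) had its highest mean in sham, at 4.32 ± 0.83 CPM, followed by 3.78 ± 0.67 CPM at 3 days, 3.42 ± 0.75 CPM at 1 day and 3.39 ± 0.87 CPM at 12 weeks (SD, n = 6). No pair of groups was told apart. Its libraries ranged from 3.06 to 5.58 CPM in sham, 2.74 to 4.86 at 1 day, 2.92 to 4.50 at 3 days and 2.02 to 4.47 at 12 weeks. In each SCI group 5 of 6 libraries lay below the sham mean, and 2 lay below the sham range. The log2 fold changes against sham were -0.34 (95% interval -0.69 to 0.02, adjusted p = 0.157), -0.19 (-0.54 to 0.17, adjusted p = 0.504) and -0.35 (-0.71 to 0.01, adjusted p = 0.151) in order of time. No setting tried called Agtr1a in any of the 6 comparisons.

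**Figure D3:**
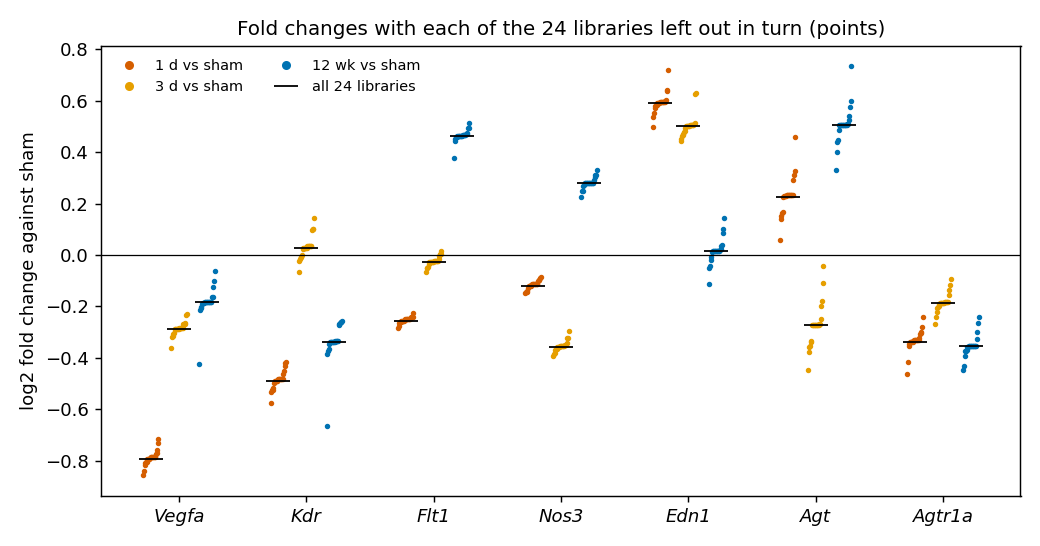
Log2 fold change against sham of each gene with each of the 24 libraries left out in turn (points, sorted within a column), at 1 day, 3 days and 12 weeks. Black bars are the values with all 24 libraries. The low points of Vegfa (-0.43) and Kdr (-0.67) at 12 weeks are the fits without 12 week replicate 3.

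Whether the genes changed by unequal amounts was asked with ratios of counts within a library, in which gene length and library scaling cancel between groups. The log2 ratio of Vegfa to Flt1 was 0.60 ± 0.19 in sham (SD, n = 6). It was 0.05 ± 0.27 one day after injury, 0.34 ± 0.31 at 3 days and -0.12 ± 0.40 at 12 weeks. The ratio lay 0.55 below sham at 1 day and 0.72 below it at 12 weeks (two-sided exact permutation p = 0.00433 for each, adjusted p = 0.0346 over 24 ratio tests). Both held without each library in turn. Against sham, Vegfa was thus lower relative to Flt1 at both times. At 1 day both genes were called lower, Vegfa by more (log2 fold change -0.79 against -0.26). At 12 weeks Vegfa was not called (-0.18), while Flt1 was called higher (0.46).

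The log2 ratio of Flt1 to Kdr was 2.57 ± 0.41 at 12 weeks, against 1.68 ± 0.28 in sham (exact permutation p = 0.00866, adjusted p = 0.0346). Only 12 week replicate 3, at 1.82, lay within the sham range of 1.32 to 1.93. The test was passed with all libraries but not without 12 week replicate 2, 5 or 6 (adjusted p at most 0.0519). The log2 ratio of Nos3 to Kdr moved from 0.47 ± 0.24 at 1 day to -0.26 ± 0.36 at 3 days, a difference of -0.73 (exact permutation p = 0.00433, adjusted p = 0.0346) that held without each library in turn. At 12 weeks it was 0.81 ± 0.46. Of the 24 ratio tests, 9 passed. The 5 not detailed here, all with 12 weeks on one side, were each lost without 3 to 11 single libraries, with adjusted p-values up to 0.104. The ratios were chosen after the data were seen, and the tests share genes and libraries. No share of passing ratios was computed for other gene pairs, so the count of 9 sets nothing apart in these genes.

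**Figure D4:**
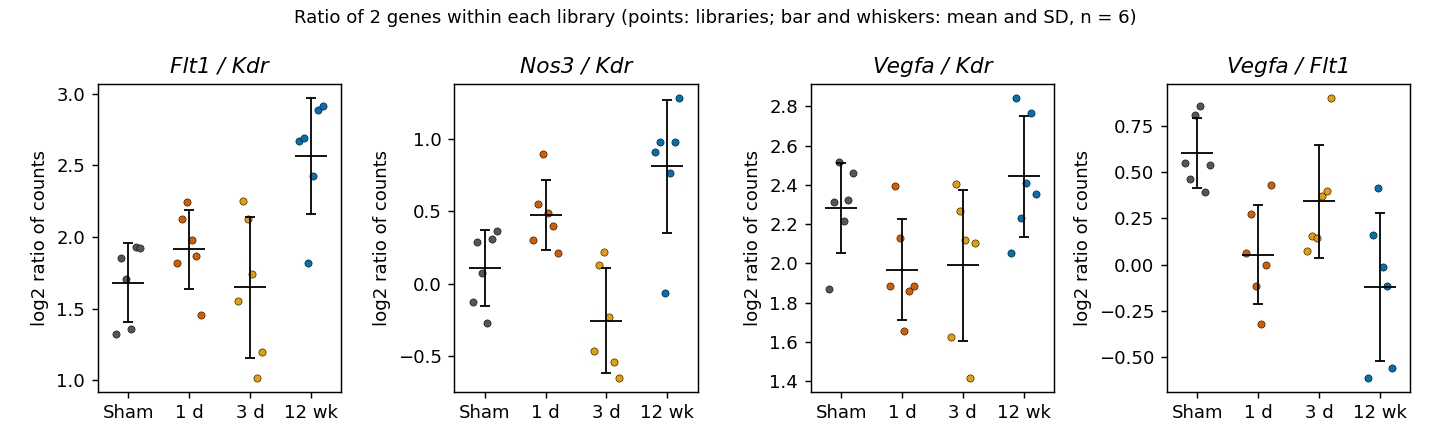
Log2 ratio of the counts of a pair of genes within each library, by group. Points are libraries (replicates 1 to 6 from left to right), bars are means and whiskers SD (n = 6). For Flt1 to Kdr, 5 of 6 libraries at 12 weeks lie above all other libraries, and the mean of Vegfa to Flt1 is highest in sham.

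Covariation between libraries of a group was weakly defined. Among Vegfa, Kdr, Flt1 and Nos3, 24 relations were computed, 6 gene pairs in each of 4 groups of 6 libraries, on log2 CPM. The lowest p was for Vegfa and Kdr at 12 weeks (Pearson r = 0.86, exact permutation p = 0.0153, adjusted p = 0.2; Spearman rho = 0.89, exact permutation p = 0.0333, adjusted p = 0.467). Next came Flt1 and Nos3 at 12 weeks (r = 0.85, exact permutation p = 0.0167, adjusted p = 0.2; rho = 0.83, exact permutation p = 0.0583, adjusted p = 0.467). Without the 2 libraries farthest from the median of the first gene, r was 0.40 and 0.55. No relation passed after adjustment, and 12 week replicate 3 is 1 of the 2 libraries left out in both cases.

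Over all 24 libraries, and so with the differences between groups included, Flt1 and Nos3 were the most alike of the 21 pairs (r = 0.71), followed by Vegfa and Kdr (r = 0.69). Once group means were removed, r was 0.64 for Flt1 and Nos3 and 0.69 for Vegfa and Kdr. Nos3 was the gene 516th most alike to Flt1, and Kdr the 133rd most alike to Vegfa, among 11513 genes of sufficient level. Of those genes, 140 had r over 0.8 with Flt1, 39 with Nos3 and 11 with Vegfa, and none had with Edn1, Agt or Agtr1a. The files do not pair IDs with names, so the nearest genes are given by ID only. The nearest to Vegfa was ENSRNOG00000000635 (r = 0.84), which fell at 1 day (log2 fold change -0.98, adjusted p = 0.000563). For Edn1 it was ENSRNOG00000058003 (r = 0.80), which rose at 1 day (0.64, adjusted p = 0.000348). For Agt it was ENSRNOG00000011214 (r = 0.77), whose log2 fold changes against sham lay between -0.17 and 0.10 and were not called. These correlations describe likeness over shared libraries and carry no test. Each nearest gene was chosen with the group differences included, so a fall or rise that it shares with its member adds no support.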

How the data were processed

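The authors deposited raw counts per Ensembl gene ID, 1 table over all 24 libraries, named as protein-coding genes per the labels. FastQC 0.12.1, STAR 2.7.11a and featureCounts 2.0.6 with the build mRatBN7.2 were used, per the submitters' processing notes. Per the labels' protocols, RNA was depleted of ribosomal RNA, and strand-specific libraries were sequenced as paired ends. For annotation release, strand setting and shared reads, nothing was given in the sources used here, so overlapping genes may share reads. The table has 26166 lines for 23098 IDs, repeated lines of an ID hold identical counts, and each ID was used once. Over the 60 pairs of replicates, chi-square per degree of freedom was 13.3 to 115, so none was a second copy of another.

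Counts were fitted in R 4.3.3 with edgeR 4.0.16: filterByExpr by group (15065 genes left), TMM scaling, 1 model of 4 groups with 20 residual degrees of freedom, and two-sided quasi-likelihood F tests of 6 contrasts, adjusted by Benjamini-Hochberg over all tested genes. Each standard error was the log2 fold change over the square root of F. The steps were also run on counts simulated from the sham means and the fitted spread. Those counts imitate no library that stands apart, so the run does not show how such a library affects the calls. Other settings were DESeq2 1.42.0, its size factors in edgeR, TMMwsp, no filter, limma-voom 3.58.1, only the compared groups, the replicate number as a block, an exact permutation test over 924 arrangements (log2 CPM with a prior count of 2, adjusted over all tested genes; smallest p 0.00216) and each library left out. The fit without the 3 least correlated libraries, the ratio tests and the motif search were added after the data were seen. Named genes are the 7 members and, by ID, the gene of highest Pearson r (mean log2 CPM of at least 1) for Vegfa, Edn1, Agt and Kdr in that order, with at most 2 that rose and 2 that fell. That limit was met before Kdr. Direction here is the sign of the largest difference from sham, called or not. The members and lists were chosen with earlier results of these data known. Lists of other VEGF, vasoactive and cell type marker genes were set by symbol and not run, since no table used here pairs the IDs with symbols. Promoters are from RefSeq (GRCr8), and 6 of the 7 members, all but Agt, matched by symbol.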

Additional observations from a re-analysis of the deposited data

Results flagged for a closer look

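Among the 28 sets of 6 libraries (7 genes in 4 groups), 3 held a library far from the rest, and chance alone gives about 1 in 20 sets. For Kdr at 12 weeks replicate 3 had 178 CPM, where the next library had 88.9 CPM. For Edn1 in sham replicate 5 had 1.74 CPM against 1.24 CPM for the next. For Edn1 at 3 days replicate 1 had 0.968 CPM, where the next lowest had 1.68 CPM.

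The difference from sham itself differed between times, by the direct contrast of the SCI groups in edgeR, for 5 of the genes. Between 12 weeks and 1 day this was 0.61 on the log2 scale for Vegfa, 0.72 for Flt1, 0.40 for Nos3 and -0.57 for Edn1. Between 12 weeks and 3 days it was 0.49 for Flt1, 0.64 for Nos3 and 0.78 for Agt. In that order, the contrasts called 33.9% and 31.3% of all tested genes. The calls of Vegfa, Edn1 and Agt were each lost in some settings. With a single sham group, these contrasts compare the SCI groups and any effect of the weeks between them.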

How the results depend on the processing

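Over 33 other settings each, 24 of them leaving out a library, 7 of the 13 called differences kept direction and call: Vegfa at 1 day, Nos3 at 3 days, Flt1 at 12 weeks against sham, and Flt1 and Nos3 at 12 weeks against both acute times. Among these kept calls, only Nos3 at 3 days and Flt1 and Nos3 at 12 weeks against 1 day lie within a run of library numbers. For the others, no setting tells the group from the run. Of the 29 not called, 8 were called in some setting. No called difference changed sign, and the cause of a lost or gained call was not tested. Edn1, Agt and Agtr1a had 12 to 337 counts per library; that depth limits the precision of their values.

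Without the filter on low counts, Flt1 at 1 day was -0.25 (adjusted p = 0.051) and Agt between 12 weeks and 3 days was 0.77 (0.0597), both no longer called. With the compared groups alone, Kdr at 1 day was called (-0.48), and Vegfa between 12 weeks and 1 day (0.61) and Agt between 12 weeks and 3 days (0.78) were not. By the exact permutation test, Kdr at 1 day was called (-0.49, adjusted p = 0.0406), and Nos3 at 12 weeks (0.27, adjusted p = 0.064) and Vegfa between 12 weeks and 1 day (0.53, adjusted p = 0.134) were not. Without the 3 least correlated libraries, a setting chosen after seeing the data, Kdr was called at 1 day (-0.49), at 12 weeks (-0.63) and between 12 weeks and 3 days (-0.56). Vegfa (0.53) and Flt1 (0.26) were then called between 3 days and 1 day, while Edn1 between 12 weeks and 1 day (-0.53) and Agt between 12 weeks and 3 days (0.75) were not.

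Sham and SCI share replicate numbers, but same-numbered libraries did not deviate together: r of their deviations was -0.18 to 0.15 over 36 pairs, and in 6 of 36 cases a library correlated best with its own number. With the replicate number as a block, Agt between 12 weeks and 3 days was 0.75 (adjusted p = 0.0553), and no other call of the 7 genes changed. Genes called between 3 days and 1 day went from 186 higher and 227 lower to 136 and 162 with the block.

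That count moved most with the setting, to 119 and 140 with these groups alone, 370 and 447 by DESeq2, 467 and 551 without the 3 libraries, and 0 and 0 by the exact permutation test, where 1335 and 1273 genes had an unadjusted p under 0.05. Leaving out 1 library gave 77 to 296 higher and 93 to 357 lower, lowest without 1 day replicate 5 and highest without 12 week replicate 3. Between 12 weeks and 3 days, the permutation test called 1393 higher and 1417 lower, against 2410 and 2308.

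Leaving out 1 library, the values whose call changed ranged as follows on the log2 scale. At 1 day against sham, Kdr was -0.58 to -0.42, Flt1 -0.29 to -0.22 and Edn1 0.50 to 0.72. Edn1 at 3 days was 0.44 to 0.63. At 12 weeks, Vegfa was -0.43 to -0.060, Kdr -0.67 to -0.26 and Nos3 0.23 to 0.33. Vegfa was 0.42 to 0.57 between 3 days and 1 day and 0.37 to 0.73 between 12 weeks and 1 day, where Edn1 was -0.71 to -0.48. Between 12 weeks and 3 days, Kdr was -0.69 to -0.27, Edn1 -0.62 to -0.40 and Agt 0.62 to 0.88.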
